A study of Rattus norvegicus with 6 samples.

Results

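The comparison described here asks what a human IgG without AQP4 reactivity does to gene expression in the rat spinal cord. It uses 4 of the 6 arrays of the series. EAEcoI rats received encephalitogenic T cells against myelin basic protein and, on day 4, subcuvia, a commercial preparation of normal human IgG, as control IgG. EAEcoP rats received the same T cells and PBS. Rats of the group control IgG only received subcuvia without T cells, and the healthy controls were completely untreated, so that the arm without T cells lacks a PBS injection. All were adult Lewis rats, and the tissue was formalin-fixed, paraffin-embedded spinal cord. It was taken 24 hours after the antibody or PBS, a time that does not apply to the untreated healthy controls. RNA of 5 rats (3 for the healthy controls) was pooled for 1 array per group. NMO-IgG, the antibody of the remaining 2 arrays (ENMO and NMO-IgG only), is human IgG too.

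Injected IgG circulates with the blood and reaches the normal spinal cord only in small amounts, because the blood-brain barrier holds it back. Where T cells open that barrier, IgG can enter the tissue and be bound by Fc receptors of microglia, macrophages and neutrophils. Many of these receptors signal through a shared chain with an ITAM motif and the kinases Lyn and Syk, while the inhibitory receptor Fcgr2b works against them. A control IgG is given to separate such general effects of IgG from those of an antibody against astrocytes.

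The 4 arrays lay on 2 slides: EAEcoP and control IgG only were on slide 1, and EAEcoI and healthy control on slide 2. The average antibody difference over both backgrounds is therefore balanced for the slide, but within each background the antibody and the slide cannot be told apart, and the same holds for a difference between the backgrounds. Between 35.43% (control IgG only) and 60.22% (EAEcoP) of spots were well above background. There was no replicate of any group, so a difference between 2 arrays has no test. The only error that can be given is that between spots of the same probe: among probes with 10 spots and well above background, the pooled SD was 0.485 (log2), which is 0.686 or 1.61-fold for a difference of 2 arrays. Variation between rats is not covered. Levels are given as normalized signal intensity (NSI), the quantile-normalized, background-corrected signal of the target's brightest probe. In bulk tissue, fewer cells of a type and less RNA per cell cannot be told apart.

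Markers of the tissue were found on the 4 arrays. The myelin genes Mbp and Mog were well above background on each of them. The motor neuron enzyme Chat lay between 50.5 and 74.4. Other defining markers were weak: the astrocyte water channel gene Aqp4 was well above background only in EAEcoP (NSI 7.67), and the synaptic gene Syt1 on none of the 4. The T cell gene Cd3d had NSI 924 in EAEcoI and 872 in EAEcoP against 628 with control IgG only and 594 in healthy control. None of the 4 arrays had Cd3e, of the same complex, well above background.

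The largest differences between the arrays went with the letters of the probes, and stretches of some probes are therefore shown first. Each is a 30-base part of a 60-base probe, 5′ to 3′, as the deposited files give it. The first set holds a run of 6 G, in capitals, and belongs to genes that were far higher in EAEcoI and healthy control than in EAEcoP.
Spindoc: caatgtggaGGGGGGaggtgtgacattact
Has3: cttctaGGGGGGttagcctacacagcttat
Pim1: ggaaaaacatttGGGGGGtgggattaaaaa
Maco1: gtcatttttaaaGGGGGGaaataacatcca
Egfl7: catggggaGGGGGGtcttgtgtggctctta
The next set holds a run of 6 C, in capitals, and belongs to genes that were far higher in EAEcoP than in EAEcoI.
Ube2n: CCCCCCaaaagacgaagaaaaagcttgtga
Pik3r2: CCCCCCgagttcttcaagccatatctccga
Tnrc6b: CCCCCCaaactattcttctagcttgtgggg
The last set holds AATAAA, in capitals, the word that directs polyadenylation near the end of most messenger RNAs. These genes, too, were higher in EAEcoP.
Calm3: tcaatgttttccAATAAAatacagtgacta
Rps26: ataccatggaaaAATAAAactgaagttata
Rpl34: gtcagaaagcaaAATAAAtgggcagctttt
Cox5a: aacttggactttAATAAAgggaaatgagtt
Cox5b: aaaacgtctctcAATAAAgactagccaacg

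Over both backgrounds, no target passed the test for an effect of control IgG. The limma fit with a term for T cells and a term for the antibody called 0 of 24508 targets (0%) at an adjusted p under 0.05, and its smallest adjusted p was 0.211. At an unadjusted p under 0.05 it counted 596 targets (2.43%), 214 higher and 382 lower with control IgG. This fit has 1 residual degree of freedom, which is the disagreement between the backgrounds and the same contrast as the slide. Its error is therefore not a spread between replicates, so 0 calls do not show that control IgG had no effect. The count of calls also depended on the setting. It was 52 with the arrays scaled to the 75th percentile and 44 in a fit of all 6 arrays with the slide. Without the array control IgG only, the fit of all 6 called 348, and without EAEcoI 100.

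Each background taken alone showed many differences. Of 24334 targets measured in EAEcoI or EAEcoP, 11289 (46.4%) differed at least 2-fold, 6096 of them higher (25.1%) and 5193 lower (21.3%) in EAEcoI. Without T cells, 4234 of 16897 targets (25.1%) differed at least 2-fold, 2050 higher (12.1%) and 2184 lower (12.9%) with control IgG. The SD of the differences was 1.47 (log2) with T cells and 1.11 without, against the 0.686 that the spots of a probe give. With normexp background correction, which draws dim signals together, the counts with T cells were 1367 higher and 1719 lower, and those without T cells 773 and 921. In the table of 1 value per target that was deposited, the balance without T cells was lost, with 704 higher and 6627 lower and a median difference of -0.75. Of the probes with 10 spots, whose means are more precise, 45.3% of 148 differed at least 2-fold between EAEcoI and EAEcoP, against 46.3% of probes with a single spot. Between control IgG only and healthy control it was 14.4% of 97, against 19.8%.

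The differences of the backgrounds did not run together. Across 11993 targets well above background on all 4 arrays, Pearson's r between them was -0.24 and Spearman's rho was -0.16, given as a description, since targets are not independent and the points share arrays, slides and probe sequence. The sign was the same for 46.4% of them. Of 16593 targets measured in both backgrounds, 419 (2.53%) were at least 2-fold higher with control IgG in both and 212 (1.28%) at least 2-fold lower in both. The excess of higher targets turned round with the deposited values, which gave 88 higher and 638 lower in both. Those values were not normalized between arrays here. With normexp the counts were 110 and 52. More went opposite ways: 919 (5.54%) were higher with T cells and lower without, and 675 (4.07%) the reverse. An opposite change is the same pattern as a difference between the slides.

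**Figure D1:**
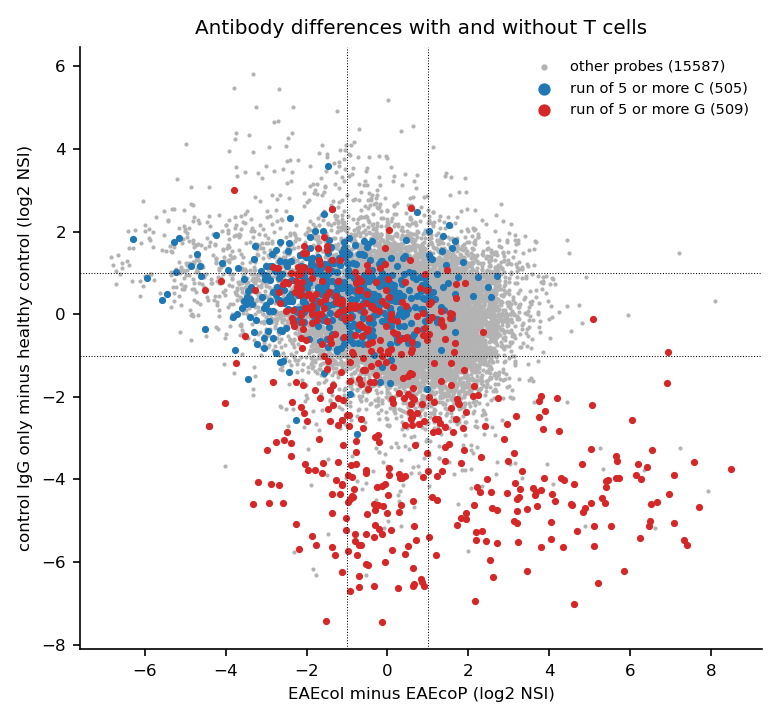
Difference between control IgG and no antibody with T cells (x axis, EAEcoI minus EAEcoP, log2 NSI) against that without T cells (y axis, control IgG only minus healthy control, log2 NSI), 1 point per target measured in both backgrounds. Red points are probes with a run of 5 or more G, blue points those with 5 or more C, and dotted lines mark 2-fold. The red points extend to the lower right, and few points of any colour lie far out in the upper right or lower left.

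The targets that moved alike with control IgG in both backgrounds were led by genes of mixed function. Or4a69, an olfactory receptor gene, had NSI 144 in EAEcoI against 22.5 in EAEcoP, and 327 in control IgG only against 61.7 in healthy control. Zfp1, a zinc finger gene, had NSI 225 against 27.0 and 179 against 39.5. Hoxc9, a homeobox gene active in the thoracic cord, had NSI 73.2 against 19.3 and 617 against 62.2. In these genes both arrays with control IgG were above both arrays without.

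The lesser of the 2 differences, by which they were ranked, was 2.40 (log2) for Or4a69, 2.27 for Cilp, a cartilage matrix gene, 2.19 for Phf3, 2.18 for Zfp1 and 2.17 for Or1j22, another olfactory receptor gene. It was 2.07 for Svs3b, 2.01 for Sertad4, 1.92 for Hoxc9 and 1.90 for Atp6v0a4, a subunit of the proton pump, with Rbm4, an RNA-binding protein gene, between Sertad4 and Hoxc9. Atp6v0a4 was an exception to the order of the arrays, since NSI was 57.3 in EAEcoI and 82.5 in healthy control. The limma estimate for Or4a69 was 2.54 (95% interval 0.81 to 4.28), and the adjusted p of limma rounded to 1 for each of these 10 genes. The 10 genes were chosen for large differences on the same 4 arrays, so an interval away from 0 follows largely from the choice. Its width rests mainly on the prior variance that limma takes from all targets (43.8 degrees of freedom, beside 1 residual). No probe of the 10 held a run of 5 G.

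Of the genes lower with control IgG in both backgrounds, S100a10, which encodes a partner of annexin A2, had NSI 135 in EAEcoI against 481 in EAEcoP, and 63.9 in control IgG only against 327 in healthy control. Kcnh3, a potassium channel gene, had NSI 77.8 against 429 and 55.5 against 363. Cep15 had NSI 112 against 689 and 59.0 against 280. For these 3 genes both arrays without antibody were clearly above both arrays with control IgG.

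The remaining 7 were Mrpl2, Zc3h11a, Pi4ka, 9030612E09Rikl, AAdacl4fm3l1, Rimklb and Klk12, and the lesser difference of the 10 genes lay between -2.75 (Mrpl2) and -1.83 (S100a10). Probes with a run of 5 or more G stood behind 5 of the 10 genes (Mrpl2, Zc3h11a, Pi4ka, Rimklb and Klk12). The smallest adjusted p of limma among them was 0.263, for Zc3h11a, whose estimate was -3.57 (95% interval -5.30 to -1.85). That interval has the same limits as the one of Or4a69. Over all 212 targets lower in both, 61 (28.8%) had a probe with a run of 5 or more G. The same held for 1 of the 419 higher in both and 3.07% of all targets measured in both backgrounds.

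**Figure D2:**
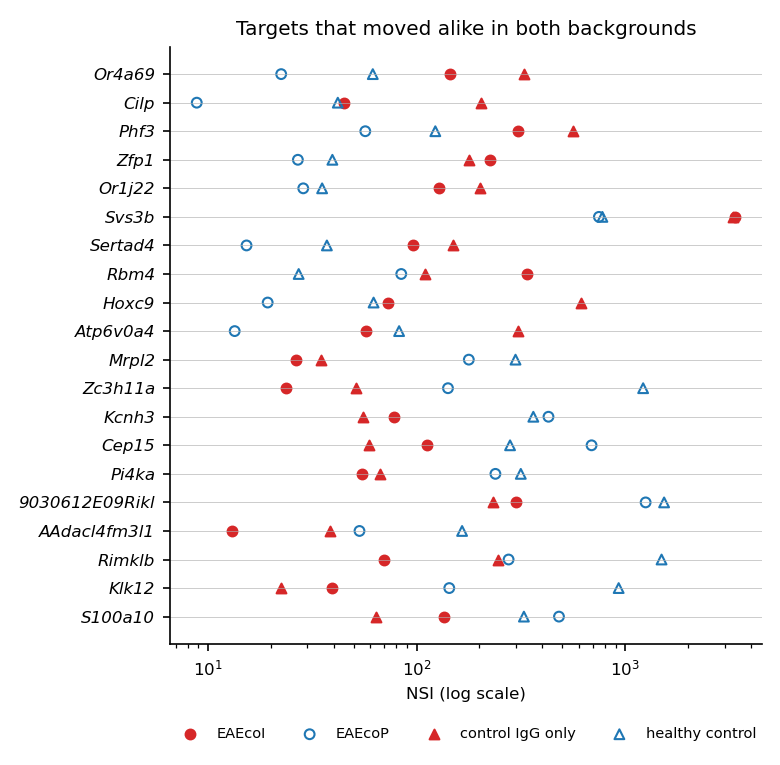
NSI (log scale) on the 4 arrays of the 20 named genes with the largest lesser difference in the same direction in both backgrounds. Filled red symbols are arrays with control IgG and open blue symbols arrays without antibody, circles with T cells and triangles without. In the upper 10 genes red lies to the right of blue within each background, and in the lower 10 to the left.

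A few genes were well above background on both arrays of one antibody status and on neither array of the other. By this rule 97 targets were higher with control IgG and 120 lower, and their ratios are bounds, with the dim array set at its detection floor where it lay below it (NSI 5.53 in EAEcoP, 10.5 in healthy control, 6.23 in EAEcoI and 11.6 in control IgG only). The largest lesser bound upward was that of Or4g17, an olfactory receptor gene, at least 7.24-fold higher in EAEcoI than in EAEcoP and at least 4.78-fold higher in control IgG only than in healthy control. Downward, Slc39a8, a zinc and manganese transporter gene, was at least 3.90-fold lower with T cells and at least 9.64-fold lower without. None of the genes named so far as moved alike in both backgrounds belonged to any of the 28 gene lists described next.

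The NSI of the targets that moved alike is also given for the arrays of NMO-IgG, which were not used to choose them, as a description. The median of the 419 higher targets was 114 in EAEcoI and 156 in control IgG only, 30.9 in EAEcoP and 57.3 in healthy control, and 106 in ENMO and 112 in NMO-IgG only. The median of the 212 lower targets was 28.8 and 27.3 with control IgG, 106 and 156 without antibody, and 35.9 and 28.5 with NMO-IgG. The targets were chosen for their values on the first 4 arrays, so that an array not used in the choice lies away from the extremes whatever it received, and nothing is read from these medians about NMO-IgG.

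Fc receptors and their signalling did not move together with control IgG. Fcgr1a, the high-affinity receptor for IgG, had NSI 140 in EAEcoI and 575 in EAEcoP, and 84.1 with control IgG only and 90.0 in healthy control. Fcgr2a had NSI 233 in EAEcoI, 798 in EAEcoP, 167 with control IgG only and 308 in healthy control. Both genes were thus lower in EAEcoI than in EAEcoP, 4.10-fold and 3.42-fold. Without T cells, Fcgr1a differed by less than the spread between spots, and Fcgr2a was 1.84-fold higher in healthy control.

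The inhibitory receptor Fcgr2b was well above background only in EAEcoP (NSI 15.8). Fcer2, the low-affinity IgE receptor of B cells, was 2.67-fold higher in EAEcoI. Of the 6 members of the list measured with T cells, 1 was at least 2-fold higher and 3 lower in EAEcoI, beside 25.1% higher and 21.3% lower over all targets. Of the 4 measured without, 0 passed 2-fold either way, beside 12.1% higher and 12.9% lower over all targets. No array had the neonatal receptor gene Fcgrt well above background.

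Among 17 genes of ITAM signalling measured with T cells, 3 were at least 2-fold higher in EAEcoI and 2 lower, both below the shares over all targets (25.1% and 21.3%). Tyrobp, an ITAM adaptor that serves myeloid receptors other than those for IgG, had NSI 4633 in EAEcoI, 2516 in EAEcoP, 1352 with control IgG only and 1247 in healthy control. Inpp5d, the phosphatase that acts downstream of the inhibitory receptor, was 4.38-fold higher in EAEcoI (NSI 249 against 56.9) and had NSI 204 and 229 without T cells. The median of the list was 0.77 with T cells and -0.16 without, beside 0.11 and -0.00 for all targets measured.

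Of the genes of antigen presentation and of the interferon response, more passed 2-fold lower than higher in EAEcoI, though most class I and interferon genes passed neither way. Over all targets 21.3% were lower and 25.1% higher. Of 10 genes of MHC class II and its processing, 5 were at least 2-fold lower in EAEcoI and 0 higher, with a median of -1.21. RT1-Da, an alpha chain of class II, was at least 9.74-fold lower in EAEcoI. Ifi30, the lysosomal thiol reductase, had NSI 20.9 in EAEcoI, 119 in EAEcoP, 28.9 with control IgG only and 37.0 in healthy control. The protease gene Ctss was 6.14-fold lower in EAEcoI. RT1 genes are a family of near-identical members, so their probes may read more than 1 gene.

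Of 19 genes of MHC class I and peptide loading, 6 were at least 2-fold lower in EAEcoI and 0 higher. B2m, the invariant light chain, had NSI 476 in EAEcoI, 1575 in EAEcoP, 280 with control IgG only and 481 in healthy control. Of 29 interferon-stimulated genes, 11 were at least 2-fold lower and 2 higher. Gbp2, an interferon-induced GTPase, had NSI 963 in EAEcoI and 2254 in EAEcoP, and 19.7 with control IgG only and 53.4 in healthy control. Thus Gbp2 was lower with control IgG in both backgrounds, without T cells as a bound. Gbp4 went the other way in both, with NSI 31.8 against 6.30 with T cells and 61.9 against 29.0 without. None of the 4 class II genes measured without T cells passed 2-fold, beside 12.1% higher and 12.9% lower over all targets. So few genes do not give a share.

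Among genes of abundant housekeeping proteins, too, more passed 2-fold lower than higher in EAEcoI, beside 21.3% lower and 25.1% higher over all targets. Of 68 genes of cytosolic ribosomal proteins, 37 were at least 2-fold lower and 1 higher, with a median of -1.17. Rpl26 had NSI 120 in EAEcoI, 2663 in EAEcoP, 1791 with control IgG only and 500 in healthy control by its brightest probe. The second probe of Rpl26 had NSI 43.7, 59.4, 59.9 and 85.5 in the same order. In contrast, Rpl39 had NSI 1660 in EAEcoI, 1120 in EAEcoP, 3747 with control IgG only and 2621 in healthy control. Without T cells 9 of 55 were higher and 2 lower with control IgG, beside 12.1% higher and 12.9% lower over all targets. Of 50 genes of oxidative phosphorylation, 21 were lower and 6 higher in EAEcoI, and of 17 reference genes 7 were lower and 0 higher, among them Gapdh (NSI 232 in EAEcoI, 658 in EAEcoP, 83.4 with control IgG only and 174 in healthy control). The median of the reference genes (-0.74) was thus near those of class I (-0.63) and interferon-stimulated genes (-0.60), and their part in the differences of the immune lists was not tested.

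The counts of myelin genes leaned opposite ways in the backgrounds, but 4 of the 24 genes measured in both passed 2-fold in opposite directions and 0 in the same. Among all targets measured in both, 5.54% were higher with T cells and lower without, and 4.07% the reverse. Another 2.53% were higher in both and 1.28% lower in both. With T cells 9 of 28 genes of the oligodendrocyte list were at least 2-fold lower and 1 higher in EAEcoI. Without T cells 7 of 24 were higher and 3 lower with control IgG. The shares over all targets were 21.3% lower and 25.1% higher with T cells, and 12.1% higher and 12.9% lower without. Mbp, a main myelin protein and the antigen of the transferred T cells, had NSI 582 in EAEcoI, 2042 in EAEcoP, 612 with control IgG only and 169 in healthy control. Mag, an adhesion molecule of myelin, had NSI 42.2, 240, 52.2 and 14.3 in the same order. Mog went the other way by its brightest probe, with NSI 201 in EAEcoI, 136 in EAEcoP, 693 with control IgG only and 1574 in healthy control. With T cells this difference was smaller than the spread between spots. The second probe of Mog had NSI 241, 72.8, 107 and 117 in the same order. Both probes of Mog thus ran against Mbp and Mag with T cells. Without T cells the brightest did so, while the second differed by less than the spread between spots.

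Of 25 T cell genes measured with T cells, 9 were at least 2-fold higher and 5 lower in EAEcoI. Over all targets 25.1% were higher and 21.3% lower, which holds for the other cell types below as well. Gzmb, a protease of cytotoxic cells, had NSI 311 in EAEcoI, 66.3 in EAEcoP, 55.6 with control IgG only and 215 in healthy control. Tbx21, the master factor of Th1 cells, had NSI 44.7 in EAEcoI and 610 in EAEcoP, and 90.6 and 165 without T cells. Of 9 B cell genes, 2 were higher and 1 lower. The myeloid list was split, with 5 of 26 higher and 7 lower in EAEcoI: Cx3cr1, the fractalkine receptor of microglia, was 3.49-fold higher, and Lgals3, a galectin of activated macrophages, was 9.85-fold lower. Of 15 neutrophil genes 5 were higher and 2 lower, and none of the 4 arrays had S100a8 well above background.

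Of 23 complement genes 6 were at least 2-fold higher and 6 lower in EAEcoI, near the shares over all targets (25.1% and 21.3%). C5 was 12.8-fold higher in EAEcoI (NSI 336 against 26.1) and 3.33-fold higher in control IgG only than in healthy control (NSI 310 against 92.8), the only complement gene past 2-fold in the same direction in both backgrounds. Cfb, which starts the alternative pathway, was 10.9-fold lower in EAEcoI and not well above background on either array without T cells. Of 33 chemokine and cytokine genes 7 were higher and 10 lower with T cells, and without T cells 1 of 21 was higher and 5 lower, with a median of -0.63. Over all targets the shares were 25.1% and 21.3% with T cells and 12.1% and 12.9% without. Ccl17 was lower with control IgG in both backgrounds, 2.13-fold with T cells and at least 2.34-fold without.

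The other lists had medians between -0.21 and 0.26 with T cells: heat shock and stress, astrocyte, adipocyte, cholesterol synthesis, endothelial, neuron, skeletal muscle, erythroid, acute phase, collagen and extracellular matrix, immediate-early genes, cell cycle, and Schwann cell and meninges. Without T cells the medians of the same lists lay between -0.37 (endothelial) and 0.36 (adipocyte). Counts per list were 8 lower and 3 higher of 27 heat shock genes, 4 and 4 of 22 astrocyte genes, 8 and 8 of 38 neuronal genes and 4 and 5 of 24 endothelial genes in EAEcoI, beside 21.3% lower and 25.1% higher over all targets. Immediate-early genes, which answer within minutes to many stimuli, counted 8 lower and 7 higher of 27. Markers of fat and skeletal muscle, tissues other than cord, were detected in part. With T cells 12 of the 15 adipocyte genes on the array and 17 of the 21 muscle genes were measured, beside 24334 of 36410 over all targets. Mb, the myoglobin gene, had NSI 1011 in EAEcoI, 1395 in EAEcoP, 1022 with control IgG only and 828 in healthy control, and Cfd, an adipocyte protease, lay between 263 and 441. In contrast, no array had Adipoq or Mylpf well above background. Their part in the differences was not tested.

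**Figure D3:**
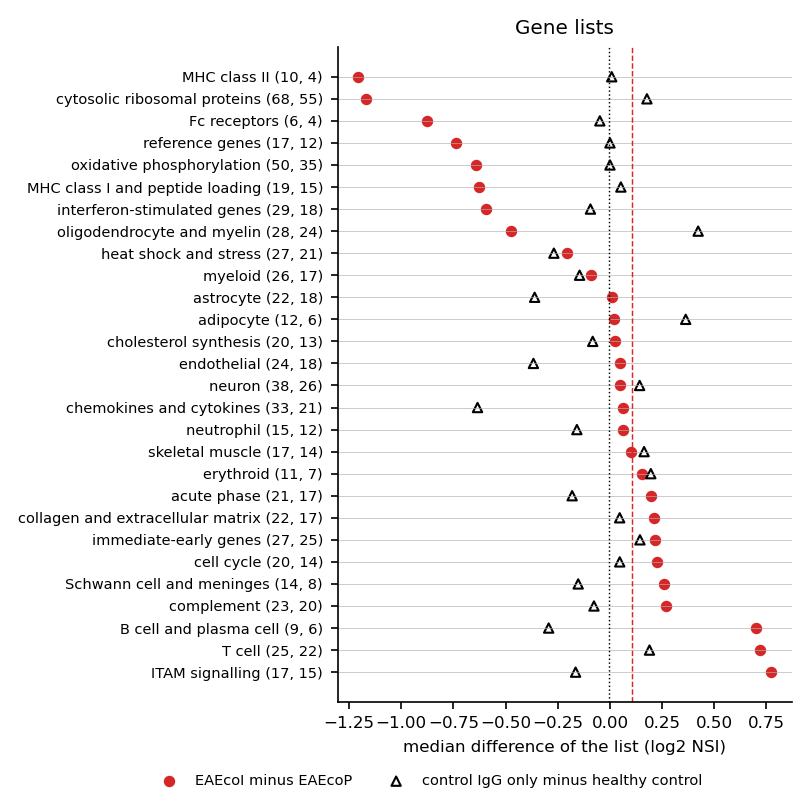
Median difference (log2 NSI) of each of the 28 gene lists, with the number of members measured with and without T cells in brackets. Red circles are EAEcoI minus EAEcoP and open triangles control IgG only minus healthy control; the dashed and the dotted line are the medians of all targets measured in each comparison. Class II genes, ribosomal proteins and Fc receptors lie at the low end with T cells, while most triangles lie within 0.4 of 0.

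The largest differences between the EAE controls were of another kind. Spindoc had NSI 21989 in EAEcoI and 60.9 in EAEcoP, but also 33871 in healthy control, with 2515 in control IgG only, 456 in ENMO and 764 in NMO-IgG only. Pim1, a survival kinase gene, had NSI 8262 in EAEcoI, 60.6 in EAEcoP, 1546 with control IgG only and 22944 in healthy control. Has3, a hyaluronan synthase gene, had NSI 2386, 17.4, 136 and 4521 in the same order. In these genes the 2 arrays of slide 2 were the high ones, whereas NMO-IgG only, on the same slide, was not.

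Among targets with a gene symbol well above background on both arrays, the other genes of the 10 highest were Slc32a1, Ccn1, Sema6a, Furin, Egfl7, Or2h1 and Maco1, and the 10 genes were 90.6-fold to 361-fold higher in EAEcoI. Of their probes 8 held a run of 5 or more G. For Slc32a1, the vesicular GABA transporter, the value in control IgG only was missing because the spot was marked as an outlier. Maco1, with a run of 6 G, was 90.6-fold higher by its brightest probe. With the deposited values it was lower in EAEcoI, by a difference of -0.52 (log2). Of its other 2 probes, 1 had NSI 67.6 in EAEcoI and 135 in EAEcoP, and the other was well above background in EAEcoP alone (NSI 7.05).

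Sema6a and Ccn1 were the 2 genes without such a run. The brightest probe of Sema6a, a semaphorin gene, had NSI 9258 in EAEcoI, 62.2 in EAEcoP, 165 with control IgG only and 58.9 in healthy control. By this probe Sema6a was higher with control IgG in both backgrounds, 149-fold with T cells and 2.79-fold without. None of the 4 arrays had the second probe of Sema6a well above background. Ccn1, a matricellular protein gene, had NSI 4258 in EAEcoI, 28.4 in EAEcoP, 427 with control IgG only and 4004 in healthy control by its brightest probe. Its second probe had NSI 242 in EAEcoI, 22.9 in EAEcoP, 135 with control IgG only and 127 in healthy control, so that the probes shared the direction with T cells.

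By the same rule, the 10 genes lowest in EAEcoI were Calm3, Rps26, Dpysl2, Rpl34, Tmsb10, Cox5a, Psmb10, Vgf, Tlnrd1 and Cox5b, from 47.7-fold to 113-fold lower. Calm3, a calmodulin gene, had NSI 17.1 in EAEcoI, 1942 in EAEcoP, 202 with control IgG only and 78.0 in healthy control. Psmb10, an immunoproteasome subunit gene, had NSI 32.3, 2072, 128 and 31.9 in the same order, and 1045 in ENMO. In these genes EAEcoP stood above the other 3 arrays. The second probe of Cox5b, a subunit of cytochrome oxidase, had NSI 95.5 in EAEcoI and 126 in EAEcoP.

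Without T cells, among targets with a gene symbol well above background on both arrays, the largest differences upward with control IgG were those of Bco1, Septin7, Ncoa2, Zcchc9 and Gpatch4, from 19.3-fold to 44.5-fold. Bco1, which cleaves beta-carotene, had NSI 3723 with control IgG only and 83.7 in healthy control, against 707 in EAEcoI and 9851 in EAEcoP. Downward they were those of Adgrl4, Gpx1, Nova2, Rnase1 and Coa7, from 49.7-fold to 92.9-fold. Gpx1, a glutathione peroxidase gene, had NSI 65.0 with control IgG only and 5385 in healthy control by its brightest probe, which holds a run of 6 G. Its second probe had 119 and 103. For Gpx1 the high value thus rested on 1 probe. Neither array without T cells had the second probe of Bco1 or of Septin7 well above background. It had NSI 2.80 with control IgG only and 3.17 in healthy control for Bco1, and 2.14 and 1.68 for Septin7. Their rises, too, rested on 1 probe.

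With probes holding a run of 5 or more G or C left out, a choice made after seeing the data, the 10 genes highest in EAEcoI included Sema6a, Ccn1, Amacr, Gpc2, Gabre, Shisa4, Zfp664, Wnt1 and Mboat1. Zfp664, a zinc finger gene, had NSI 28968 in EAEcoI, 969 in EAEcoP, 425 with control IgG only and 228 in healthy control. Amacr, a racemase of branched fatty acids, had NSI 689, 8.36, 28.9 and 11.9 in the same order. By these probes EAEcoI alone was high, but the second probes did not repeat it: that of Zfp664 had NSI 327 in EAEcoI and 313 in EAEcoP, and that of Amacr was well above background in EAEcoP alone (NSI 53.8). Gpc2, a glypican gene with a run of 4 G, had NSI 9097 in EAEcoI, 113 in EAEcoP, 692 with control IgG only and 9375 in healthy control, which is the order of the genes with longer runs. Without these probes, 9 of the 10 lowest genes were those named above, and Agpat1 took the place of Tlnrd1.

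**Figure D4:**
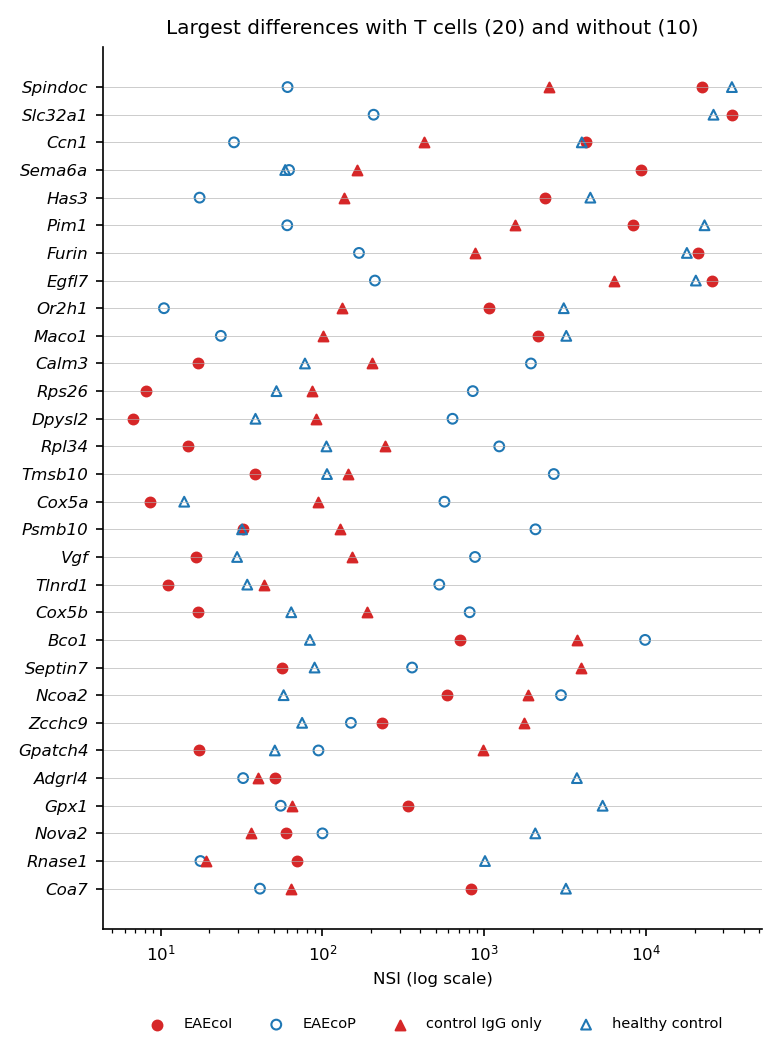
NSI (log scale) on the 4 arrays of the 20 named genes with the largest differences between EAEcoI and EAEcoP and the 10 with the largest between control IgG only and healthy control. Filled red symbols are arrays with control IgG and open blue symbols arrays without antibody, circles with T cells and triangles without. In most of the upper 10 genes EAEcoI and healthy control lie together on the right; in the next 10 EAEcoP stands alone on the right.

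The link to the probe sequence held over all targets. The rule that chose the named genes did not use the sequence. For the 114 targets whose probe held a run of 6 or more G, the median NSI was 1018 in EAEcoI and 2999 in healthy control, against 179 in EAEcoP, 247 in control IgG only, 130 in ENMO and 101 in NMO-IgG only. With T cells 75 of 112 such targets were at least 2-fold higher and 15 lower in EAEcoI; without T cells 96 of 107 were lower and 1 higher with control IgG. For runs of 5 G the median NSI was raised in healthy control (334) but not in EAEcoI (52.1, against 71.2 in EAEcoP). The 80 targets at least 8-fold higher in EAEcoI and at least 8-fold lower in control IgG only included 68 (85%) with 5 or more G in a row, beside 1.74% of all targets.

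Runs of C behaved differently. For the 78 targets with 6 or more C in a row, the median NSI was 2196 in EAEcoP against 304 in EAEcoI, 515 in control IgG only, 316 in healthy control, 582 in ENMO and 412 in NMO-IgG only. Of 77 measured with T cells, 69 were at least 2-fold lower and 0 higher in EAEcoI. Ube2n, a ubiquitin-conjugating enzyme gene from the set shown above, had NSI 94.3 in EAEcoI and 4128 in EAEcoP, with 209 with control IgG only and 150 in healthy control. Only EAEcoP stood apart here, among all 6 arrays.

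**Figure D5:**
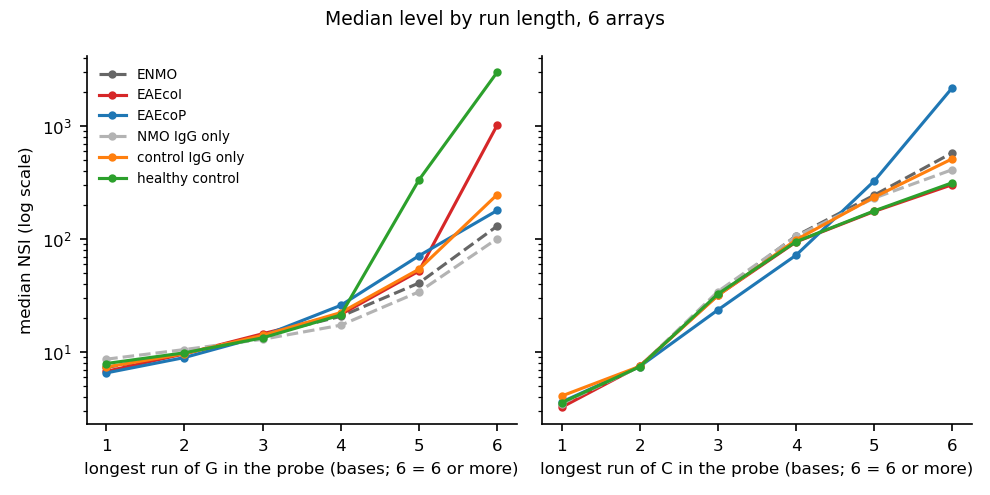
Median NSI (log scale) of all targets by the longest run of G (left) or C (right) in the probe, in bases, 1 line per array; dashed lines are the arrays of NMO-IgG. For G, healthy control rises from runs of 5 and EAEcoI from runs of 6. For C only EAEcoP rises above the other lines, at runs of 5 and farther at runs of 6 or more.

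Among all 3881 words of 6 letters found in the probes of at least 50 targets measured in both backgrounds, GGGGGG had the highest median difference with T cells (2.56) and the lowest without (-3.57), and CCCCCC the lowest with T cells (-2.49). The polyadenylation word AATAAA, in 678 targets, ranked the eighth from the lowest with T cells, with a median of -0.54, and 0.28 without. The other 5 orders of the same letters had medians between -0.03 and 0.39 with T cells. Probes of 8 of the 10 genes lowest in EAEcoI held AATAAA, beside 4.34% of all targets. Of the ribosomal protein genes, 9 of the 11 whose probe held it were at least 2-fold lower in EAEcoI, with a median of -4.25, against 28 of the other 57.

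The base counts of the probe and its longest runs of G and C together went with 15.7% of the variance of the difference with T cells and 17.0% of that without, across targets. With this share removed, the median of class II genes was -1.15, that of ribosomal proteins -0.93, that of interferon-stimulated genes -0.49 and that of reference genes -0.88, while the median of all targets was 0.17. The medians of these 4 lists thus stayed below that of all targets.

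Different probes of the same target seldom gave the same difference. Over 1300 targets with 2 probes well above background in EAEcoI and EAEcoP, the differences of the 2 probes correlated with r = 0.17 across targets, and 56.1% had the same sign. Over 600 targets in control IgG only and healthy control, r was 0.14 and 52.7% had the same sign. The levels of the 2 probes correlated with r = 0.21 and 0.19. Each difference of a gene given above is therefore that of its brightest probe.

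EAEcoP was the array farthest from the others. Of the 15 pairs of arrays, the 5 with the largest SD of log2 differences all included EAEcoP, from 1.27 with ENMO to 1.64 with healthy control, over 11123 to 11194 targets well above background on all 6 arrays. The SD between EAEcoI and EAEcoP was 1.42, and 10 other pairs lay between 0.73 and 1.24. The nearest pair was ENMO and control IgG only. EAEcoI, with the same T cells as EAEcoP, was nearer to control IgG only (SD 1.24) and to healthy control (1.24) than to EAEcoP.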

How the data were processed

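RNA from FFPE spinal cord was amplified and hybridized by the authors to one-colour Agilent 4x44K rat arrays. They deposited scanner files with an intensity per spot, background-subtracted and detrended by Agilent Feature Extraction 10.1.1.1, and a table of 1 intensity per target. That table was used as an alternative, without normalization between arrays. Control spots and spots marked as outliers were left out here. Spots of a probe were averaged, the intensities of all 6 arrays were quantile-normalized and log2-transformed, and the brightest of the probes stood for a target (43379 spots, 41012 probes, 36410 targets, of which 17103 were named through RefSeq, GRCr8). A target counted as measured in a comparison where at least 1 of the arrays was well above background, and a dim array was set at no less than its detection floor. That draws the differences of dim targets towards 0.

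The antibody effect over both backgrounds was tested with limma 3.58.1 in R 4.3.3 (eBayes with trend, Benjamini-Hochberg), checked first on simulated data. Genes were named by rule: in each direction, the 10 with the largest lesser difference in both backgrounds, the 10 with the largest difference between EAEcoI and EAEcoP, the 5 with the largest between control IgG only and healthy control, up to 5 that were well above background with 1 antibody status only, and members of the 28 lists. Of 806 list genes 761 were found. The comparison, the lists and the rules were chosen with earlier results of these data known. The genes with runs of C were chosen after their values were seen. Alternatives were other scaling, background correction, filters, folds, probe summaries, sets of arrays and, added after seeing the data, removal of local trends, of probes with runs and of probe composition. The number of arrays limits the precision.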

Additional observations from a re-analysis of the deposited data

Results flagged for a closer look

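The difference between control IgG and no antibody went opposite ways in the 2 backgrounds for many targets. At least 2-fold in both, 919 of 16593 targets (5.54%) were higher with T cells and lower without. Another 675 (4.07%) were lower with T cells and higher without. Of the 30 genes named for the largest difference in 1 background, 22 behaved so, 11 each way. These genes were chosen as extremes of the same differences, so their share cannot be set against that of all targets. The difference between the backgrounds was not tested, since each group had 1 array, and it cannot be told apart from the slide.

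The following values are the log2 difference with T cells minus that without. Among genes higher with T cells it was 12.25 for Spindoc, 12.15 for Has3, 11.50 for Maco1, 11.32 for Furin, 11.22 for Or2h1, 10.98 for Pim1, 10.46 for Ccn1 and 8.58 for Egfl7. Of the genes chosen without T cells, it was 9.98 for Coa7, 8.99 for Gpx1 and 7.71 for Rnase1. Of these 11 probes, those of Ccn1 and Rnase1 held no run of 5 G.

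Among genes lower with T cells it was -8.79 for Cox5a, -8.20 for Calm3, -8.08 for Vgf, -8.01 for Psmb10, -7.79 for Dpysl2, -7.59 for Rpl34 and -7.14 for Cox5b. Of the genes chosen without T cells, it was -9.28 for Bco1, -8.13 for Septin7, -7.34 for Ncoa2 and -6.73 for Gpatch4. None of these 11 probes held a run of 5 G.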

How the results depend on the processing

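Counts are given in the order higher in both backgrounds, lower in both, EAEcoI higher, EAEcoI lower, control IgG only higher and control IgG only lower. With normexp they were 110, 52, 1367, 1719, 773 and 921, and without background correction 173, 80, 2302, 2466, 1163 and 1298. At 4-fold they were 11, 30, 1547, 2083, 393 and 593. At 1.5-fold the counts of both backgrounds were 1371 and 625 and those without T cells 3977 and 4099. With the deposited values, not normalized between arrays here, 88 and 638 targets moved alike, and 704 were higher and 6627 lower without T cells. In that table the median difference without T cells was -0.75 and 9.60% of those past 2-fold were higher, against 48.4% in the reported setting, and Maco1 reversed to -0.52 with T cells. With normexp the share higher with T cells was 44.3%, against 54.0%. Restricted to targets well above background on all 4 arrays, 109 were lower in both, 3844 higher and 1841 lower in EAEcoI, and 974 lower with control IgG only. The correlation between the backgrounds was -0.18 without probes holding runs of 5 G or C.

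The limma fit called 52 targets with 75th percentile scaling, 41 with the deposited values, 44 in the fit of all 6 arrays with the slide, 4 with local trends removed and 4 without probes holding runs. Leaving out each array in turn from the fit of all 6 gave 0 to 348 calls (100 without EAEcoI, 348 without control IgG only), where the lone array is assumed to vary like the others. Sema6a was called in both settings with 4 calls. The cause of these changes was not tested. Of the medians of lists under the alternatives, 453 stayed within the error and 163 moved, and of the named genes 458 stayed, 171 moved and 1 reversed. These totals add up alternatives of unlike strength. Of the 60 named genes, 53 moved with normexp and 49 without background correction. All 60 stayed with quantile normalization over 4 arrays. No paired analysis was possible because each group had 1 array and thus no replicate numbers to pair. The term for T cells already compares the antibody within each background, and without it the fit called 0 targets. Depth limits the dim targets, which have bounds only.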
